A study of Nannochloropsis oceanica with 6 samples.

Results

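Model 585185, described as a biopterin-dependent aromatic amino acid hydroxylase, and model 585179, described by the NAD-binding domain of 6-phosphogluconate dehydrogenase, lie side by side on scaffold 7 of the strain CCMP1779 of Nannochloropsis oceanica, a single-celled alga of the sea. They are 2 of the 10641 gene models in the table and were taken by protein identifier. They were chosen by their FPKM values in blue against dark, where their falls stood at places 5 and 9 among all 9087 tested models, so the pair's differences between groups, each of which reuses the blue or the dark libraries of that choice, are described below and not tested. Polyadenylated RNA had been sequenced from 3 groups of 2 libraries each, made with a strand-specific kit. One group was given a blue pulse and another a red pulse, each of 5 min at 20 µmol s−1 m−2, and the dark group was given no light. All 3 groups shared the history before the pulse, a regime of 12 h of light (30 µmol s−1 m−2) and 12 h of darkness at 22 °C that ended at ZT 12, the close of a light period, with 36 h of darkness after it. After the pulse all groups stood dark for another 15 min until harvest. The sources used here give no wavelength for the pulses. The labels number the libraries but do not name separate cultures, so the spread behind each p-value is that between libraries and may be technical.

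Enzymes of the aromatic amino acid hydroxylase family add a hydroxyl group to the ring of phenylalanine, tyrosine or tryptophan, using oxygen, iron and a reduced pterin. In animals the phenylalanine enzyme makes tyrosine and opens phenylalanine breakdown, and in a moss and in conifers a plastid enzyme of the family is known to work with a folate. The domain named for the neighbour is shared by 6-phosphogluconate dehydrogenase, an enzyme of the pentose phosphate pathway, and by a family of β-hydroxyacid dehydrogenases. That family holds 3-hydroxyisobutyrate dehydrogenase, which acts in the mitochondrial breakdown of valine in animals, and the GO term given to model 585179 names this activity. Genes that start back to back on opposite strands have the stretch between their starts in common.

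Values are FPKM, a level per length of transcript and per size of library, and differences are on the log2(FPKM + 1) scale, which understates the change of low models. A model was called changed at a limma adjusted p under 0.05 over all tested models. The FPKM columns summed to between 588092 and 767747 per library, and replicates differed by a median of 0.143 (blue), 0.112 (red) and 0.0724 (dark) on the log2 scale. Of the 9087 tested models, 76.1% were called in blue against dark, 39.9% higher (3626 models) and 36.2% lower (3292 models). In red against dark 63.3% were called, 33.7% higher (3066 models) and 29.5% lower (2684 models), and in blue against red 50.7%, 27% higher (2453 models) and 23.7% lower (2153 models). These splits depend on the scaling of the libraries. With the deposited TPM values they were 4551 higher and 2475 lower in blue against dark, 4978 and 1463 in red against dark, and 1977 and 2667 in blue against red. After median centring they were 2642 and 4301, 2256 and 3499, and 1898 and 2746 in the same order. The median of all models moved with them, in red against dark, for example, to 0.36 with TPM and −0.12 after median centring, against 0.041 with FPKM.

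The hydroxylase model spans 1093170 to 1095652 on the + strand, 2483 bases. The dehydrogenase model spans 1091126 to 1092723 on the − strand, 1598 bases. Their 5′ ends face each other across 446 bases, and no other model of the table overlaps either. The coordinates are those of the Nanoce1779_2 annotation as the deposited table gives them.

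The aromatic hydroxylase was at 29.9 and 29.4 FPKM in the blue libraries, 155 and 150.5 FPKM in the red libraries, and 632 and 578 FPKM in the dark libraries. The 3 groups did not overlap, with blue lowest, red between and dark highest. This order is a description, since the blue and dark libraries led to the choice. How many of all models separate likewise with 2 libraries a group was not counted. Among all models with values its level ranked 4345 and 4451 in the blue libraries, 843 and 941 in the red libraries, and 186 and 204 in the dark libraries. Mean FPKM was 29.6 ± 0.373 in blue, 153 ± 3.33 in red and 605 ± 38.1 in dark libraries (SD, n = 2 each). The blue mean was 20.4-fold lower than the dark mean, a difference of −4.30 on the log2 scale, given as a description because it led to the choice of the pair.

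After red light the hydroxylase was also low, by less than after blue light. The red mean was 3.96-fold lower than the dark mean (log2 difference −1.98, SE 0.081), and both red libraries lay below both dark libraries. This difference stood at place 69 among the falls of all models, 29.5% of which were called lower in red against dark. Between the pulses, the blue mean was 5.16-fold lower than the red mean (log2 difference −2.33, SE 0.081), in a comparison where 23.7% of tested models were called lower. The red libraries took no part in the choice, but the dark and the blue libraries they are set against did, so no p-value is given for either difference.

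The dehydrogenase neighbour was at 43.2 and 54.2 FPKM in the blue libraries, 168 and 178 FPKM in the red libraries, and 668 and 661 FPKM in the dark libraries. Its groups stood in the same order as those of the hydroxylase and did not overlap either, a description with the same limits. The means were 48.7 ± 7.77 FPKM in blue, 173 ± 7.60 FPKM in red and 664 ± 5.56 FPKM in dark libraries (SD, n = 2 each). In rank the dehydrogenase stood at 3348 and 2872 in the blue libraries, 764 and 757 in the red libraries, and 174 and 173 in the dark libraries. The blue mean was 13.6-fold lower than the dark mean (log2 difference −3.75, not tested, for the same reason), against 36.2% of all tested models called lower in that comparison.

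In red libraries the dehydrogenase was 3.84-fold lower than in dark libraries (log2 difference −1.94, SE 0.108), with both red libraries below both dark ones. In blue libraries it was 3.55-fold lower than in red libraries (log2 difference −1.81, SE 0.108). Both differences reuse libraries of the choice and are descriptions, as for the hydroxylase. On the log2 scale the difference in red was 45.9% of that in blue for the hydroxylase and 51.6% for the dehydrogenase. A lower level in every cell and fewer cells holding the transcript cannot be told apart in RNA from whole cultures.

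**Figure D1:**
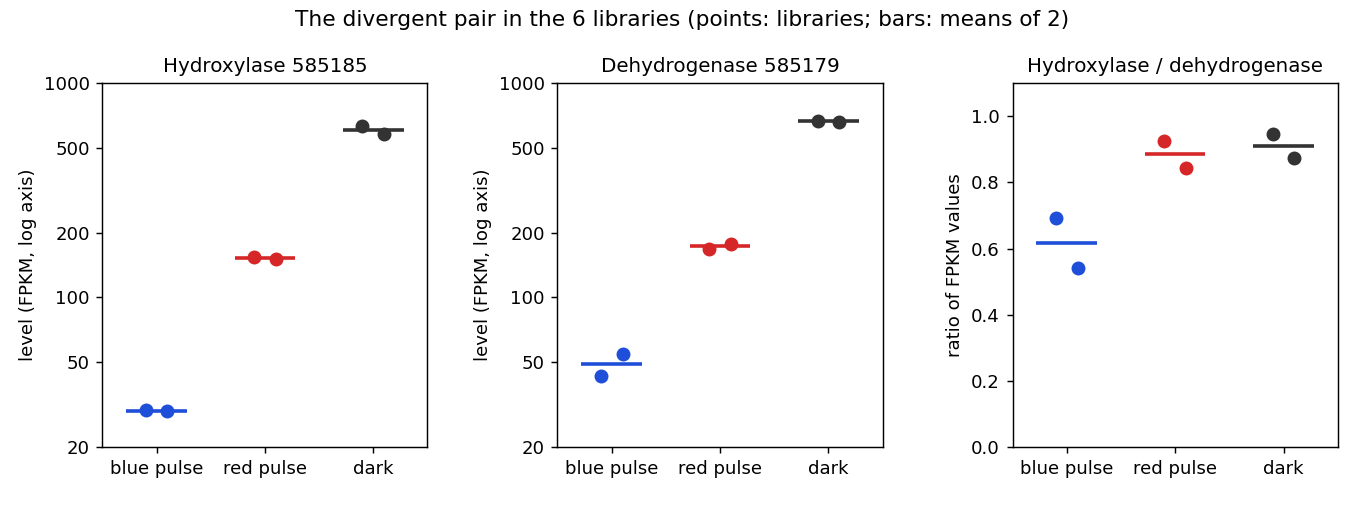
Levels of the 2 models in the 6 libraries (FPKM, log axis, left and middle) and their ratio in each library (right, linear axis), with points for libraries and bars for the mean of 2. Both models step up through blue, red and dark libraries without overlap, while the ratio is lowest in blue (0.692 and 0.542) and overlaps between red and dark.

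The 2 transcripts were close to equal in level wherever the pair was high. The ratio of hydroxylase to dehydrogenase FPKM was 0.692 and 0.542 in the blue libraries, 0.926 and 0.844 in the red libraries, and 0.945 and 0.875 in the dark libraries. The red and dark ratios overlapped, and both blue ratios lay below them, so that in blue libraries the hydroxylase stood further below its neighbour. The blue libraries also hold the fewest fragments of the pair. Steps between low FPKM values gave a rough estimate of 1597 and 1128 hydroxylase fragments in the blue libraries, 8423 and 6419 in the red libraries, and 20285 and 20207 in the dark libraries. For the dehydrogenase it was 1485 and 1340 in the blue libraries, 5852 and 4895 in the red libraries, and 13814 and 14868 in the dark libraries. Counting error alone then comes to at most 2.98% of any of these values, a rough figure because span was used for length. In the authors' deposited table the log2 fold changes were −4.35 and −1.98 for the hydroxylase and −3.77 and −1.94 for the dehydrogenase, in blue and red against dark. The q-value of all 4 in the authors' deposited table was 0.000177, the smallest in it, held by 3370 models in blue and 2032 in red. These q-values reuse the libraries of the choice, so they are quoted as deposited and are no test of the pair.

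The table was then searched for models that followed the pair over the 6 libraries. Likeness was the root mean square difference in log2(FPKM + 1) after each model's own mean was subtracted, over 9086 other models, and is a description because it uses the libraries that chose the pair. The dehydrogenase was the model most like the hydroxylase, at 0.275. The model most like the dehydrogenase was 523144, at 0.163, and the hydroxylase came next. Model 523144 is a short model with a SANT/Myb domain, at 9.37 ± 3.43 FPKM in blue, 37.9 ± 6.43 FPKM in red and 124 ± 4.01 FPKM in dark libraries. The 10 models most like the hydroxylase reached 0.599 and those most like the dehydrogenase 0.397, and 7 models stood in both groups of 10.

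Among the models in both groups of 10 were 594452, described by its KOG class as a mitochondrial oxodicarboxylate carrier, and 616145, the cobalamin-independent methionine synthase. The carrier type moves dicarboxylic acids with a keto group across the inner mitochondrial membrane in yeast and animals. It was at 179 ± 11.4 FPKM in blue, 626 ± 29.6 FPKM in red and 1383 ± 40.6 FPKM in dark libraries. Methionine synthase, which passes a methyl group from a folate to homocysteine, was at 16.6 ± 1.04 FPKM in blue, 32.8 ± 1.34 FPKM in red and 212 ± 0.593 FPKM in dark libraries. Also in both were 130052, an rRNA-processing Utp23-like protein, the CAAX protease-like model 599924, and the models 24658 and 613402, and each of these 4 overlaps another model, so reads may be shared. Only the 10 of the hydroxylase held 291741, a KIF-1 binding protein that also overlaps another model, and 555972, related to condensin complex subunit 1. Only the 10 of the dehydrogenase held 571619 and 587448, which carry no functional description. Ranked by Pearson correlation the dehydrogenase was only 58th for the hydroxylase (r = 0.995 over 6 libraries), and none of the 10 most alike remained among the first 10 by this measure, which takes no account of the size of a change.

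The models around the pair went both ways, with none of the tested ones as low against dark as the pair. The 10 models on each side cover 57.4 kb, 1059768 to 1117169, and 19 of the 20 passed the filter on low values. In blue against dark 8 were higher, 5 lower and 6 not called, with a median difference of 0.057, against 0.045 over all models. In red against dark 11 were higher, 2 lower and 6 not called, with a median of 0.35, against 0.041 over all models. Of all tested models 39.9% were higher and 36.2% lower in blue, and 33.7% higher and 29.5% lower in red. The share of neighbours called, 68.4% in each comparison, can be read against 76.1% in blue and 63.3% in red over all models. With TPM the counts in red were 16 higher and 1 lower, where all models had 4978 higher and 1463 lower. After median centring the red counts were 8 and 2, and after quantile normalization 10 and 1. The red calls of 629502 (0.29) and 585201 (0.45) were lost after each of these scalings, among other settings. In blue the counts were 7 higher and 9 lower after median centring, and 8 and 8 after quantile normalization.

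Only 2 of the neighbours were called lower than dark after both pulses, and the means of both stood in the pair's order of groups. The lowest was 585141, with a DinB-like domain, at 44.9 ± 3.87 FPKM in blue, 51.5 ± 3.10 FPKM in red and 118 ± 0.936 FPKM in dark libraries (−1.38 and −1.18). Next to the dehydrogenase, 1283 bases from its 3′ end, lies 565034, a plastid lipid-associated protein of the fibrillin type, a family that coats lipid bodies and thylakoids in plants. It was at 254 and 259 FPKM in the blue libraries, 355 and 425 FPKM in the red libraries, and 579 and 540 FPKM in the dark libraries. The order of the groups was that of the pair, with smaller steps (log2 difference −1.12 in blue and −0.53 in red, limma adjusted p = 7.94e-06 and 0.00170). Its red value turned to 0.032 after quantile normalization (adjusted p = 0.766) and was not called with TPM either (−0.18, adjusted p = 0.0947), and no other alternative ended that call.

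On the other side lies model 585186, on the − strand. It runs towards the hydroxylase, and its 3′ end is the base after the hydroxylase's 3′ end. It was at 3.17 and 2.90 FPKM in the blue libraries, 22.4 and 24.2 FPKM in the red libraries, and 5.76 and 7.40 FPKM in the dark libraries. Unlike the pair it was highest in the red libraries, lowest in the blue libraries, and the groups did not overlap. Its log2 difference was −0.90 in blue against dark and 1.69 in red against dark (limma adjusted p = 0.000163 and 7.33e-06). No source used here says whether counting used the strand, so reads at the join of the 2 models cannot be assigned with certainty. The NAD-dependent epimerase 585189, the next model along, had the same directions at −0.72 and 0.41, and 585192, of no known function, likewise at −1.07 and 0.35. The red call of 585192 was lost after median centring, after quantile normalization, and without dark replicate 1, dark replicate 2 or red replicate 1 (0.33, 0.36 and 0.29, with adjusted p = 0.0951, 0.0718 and 0.0818).

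Further out, several neighbours rose after both pulses. Model 585193, with a DUF1118 domain, was at 65.7 and 75.7 FPKM in the blue libraries, 22.9 and 24.9 FPKM in the red libraries, and 5.24 and 5.71 FPKM in the dark libraries. It starts 7692 bases beyond the hydroxylase and had the reverse of the pair's order, without overlap (3.47 in blue and 1.95 in red, log2). The models 402462 (2.19 and 1.38), 553913, of the alpha/beta hydrolase fold (1.24 and 1.17), and 585142 (1.59 and 1.30) were also higher after both. The trypsin-like peptidase 585149 rose in blue (1.61), and its red value of 0.25 was not called (adjusted p = 0.0563). That red value was called without blue replicate 1 or 2 (adjusted p = 0.0156 and 0.0163), which alters the spread alone, and with TPM (0.60).

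**Figure D2:**
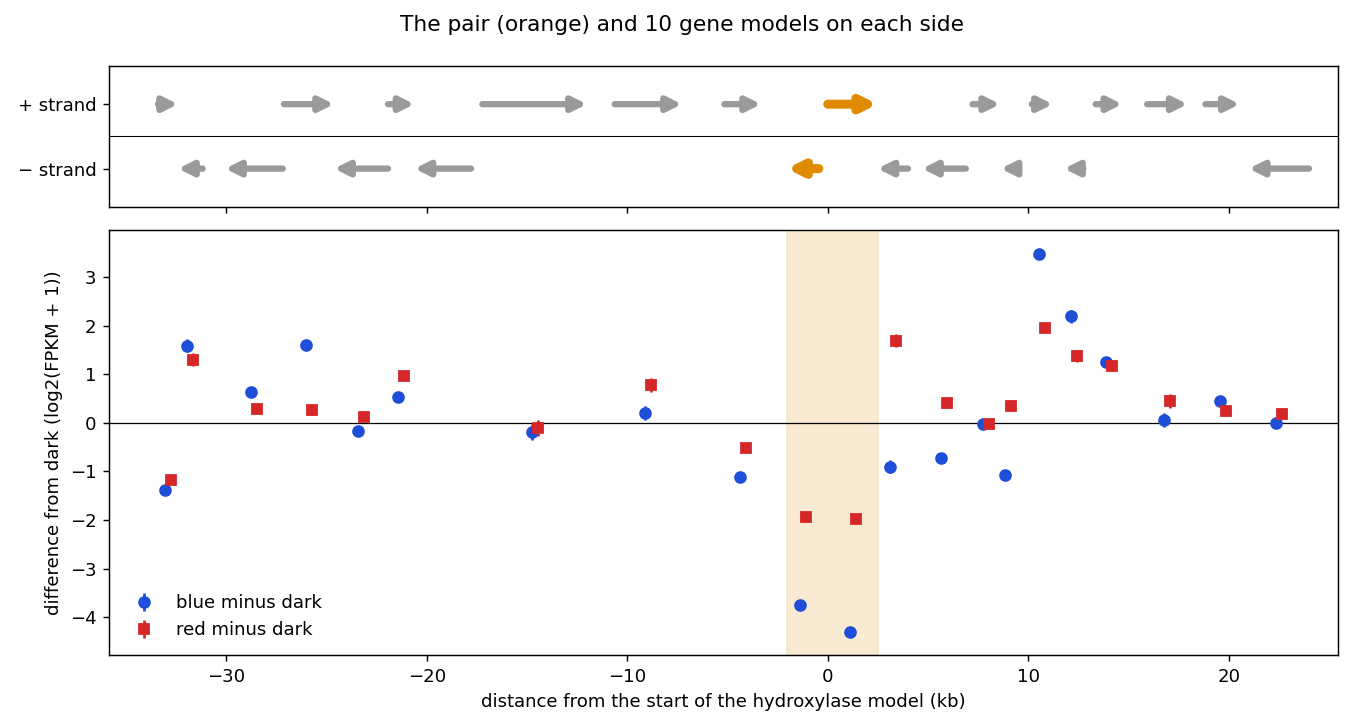
Gene models as arrows on their strands (top) and their log2(FPKM + 1) differences from dark in blue (circles) and red (squares), with bars for the SE, against distance from the start of the hydroxylase model in kb. The 2 members (orange, shaded) stand at −3.75 and −4.30 in blue and at −1.94 and −1.98 in red, and the 19 tested neighbours lie between −1.38 and 3.47.

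The pair was also set against other genes that start back to back. The table held 2679 adjacent head-to-head pairs, and 1000 had a gap of at most 446 bases and both models tested. In red against dark both models were called lower in 131 of them, 13.1%, both higher in 182, and they were called in opposite directions in 130. The figures for blue against dark were 182 (18.2%), 251 and 177, and for blue against red 97 (9.7%), 152 and 47. The counts depend on scaling: in red both were lower in 53 pairs (5.30%) and both higher in 411 with TPM, and both lower in 189 (18.9%) and both higher in 100 after median centring. Between 12.9% and 13.1% were both lower in red with gap limits of 500, 1000 and 2000 bases.

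Since the pair was chosen for its size of fall, its place among these pairs is no finding. In red against dark 1 other pair had both models at or below the pair's −1.94, namely 590587, a SOUL haem-binding protein, and 39305, with Kelch repeats, on scaffold 11. The SOUL protein was at 252 and 314 FPKM in the blue libraries, 139 and 157 FPKM in the red libraries, and 734 and 734 FPKM in the dark libraries. The Kelch model was at 97.6 and 113 FPKM in the blue libraries, 77.0 and 88.9 FPKM in the red libraries, and 370.1 and 370.1 FPKM in the dark libraries. Both were lowest in red libraries and higher in blue against red (0.93 and 0.34 log2, limma adjusted p = 0.000180 and 0.0199), whereas the means of hydroxylase and dehydrogenase were lower in blue than in red libraries.

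**Figure D3:**
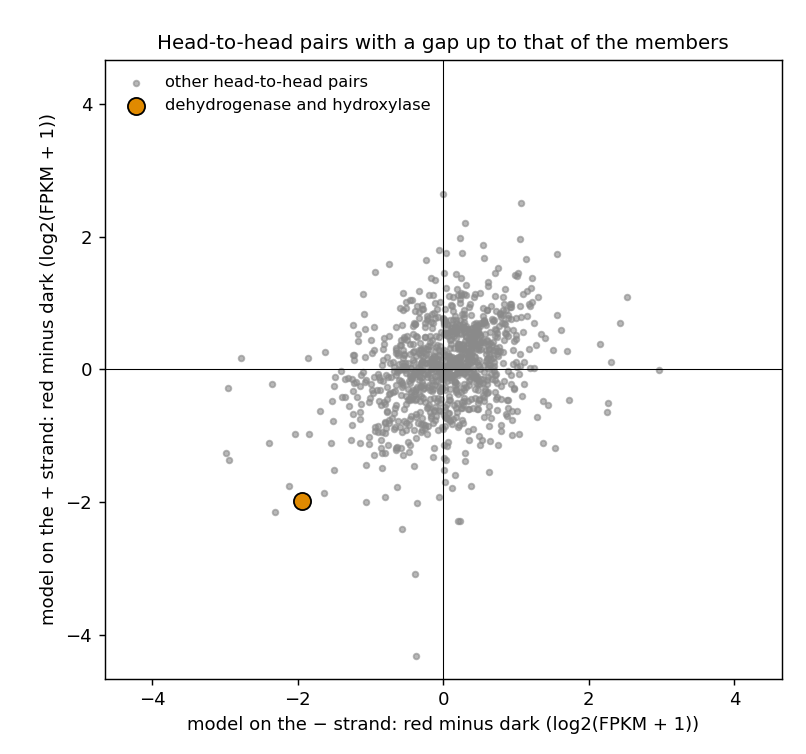
Log2(FPKM + 1) difference in red against dark for the 1000 head-to-head pairs, with the model on the − strand on the horizontal and that on the + strand on the vertical axis. The dehydrogenase and hydroxylase (large orange point at −1.94 and −1.98) lie at the lower left edge of the grey points, with 1 pair lower on both axes.

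Within its own family the hydroxylase was alone, since no other model carries the KOG class of aromatic amino acid hydroxylases. The KOG class of the dehydrogenase holds 7 models, and the changes of the 6 others were smaller than its own in both comparisons with dark. Closest in description is 632199, with the same product name, at 7.00 ± 1.47 FPKM in blue, 10.6 ± 1.17 FPKM in red and 19.9 ± 0.273 FPKM in dark libraries, and it fell after both pulses (−1.40 and −0.86 log2). The putative 3-hydroxyisobutyrate dehydrogenase 624176, the model whose own product name gives that activity, was at 2.34 ± 0.253 FPKM in blue, 2.66 ± 0.343 FPKM in red and 4.69 ± 0.0790 FPKM in dark libraries. It too fell after both (−0.77 and −0.64), although the red call was lost with TPM (−0.40, adjusted p = 0.0531). Model 559105, which shares the GO term of 585179, rose instead, with 40.2 ± 2.26 FPKM in blue, 34.3 ± 1.35 FPKM in red and 26.5 ± 0.0309 FPKM in dark libraries (0.58 and 0.36, the red call lost after median centring). The aldolase-domain model 605233 was called lower in both (−0.50 and −0.37), but neither call was stable. The blue call of 605233 was lost with TPM (−0.35, adjusted p = 0.0798) and without dark replicate 2 (−0.46, adjusted p = 0.0546). Its red call was lost with TPM, with a pseudocount of 0.1, and without dark replicate 1, dark replicate 2 or red replicate 2 (adjusted p = 0.0987, 0.183 and 0.217). The 2-hydroxy-3-oxopropionate reductase 594770 (−0.096 and −0.19) and model 584485 (0.041 and 0.14) were not called in either. After median centring, however, 594770 was called lower in both (−0.36 and −0.35), likewise after quantile normalization (−0.24 and −0.23), and in red also without blue replicate 1 or 2 at the same −0.19. With TPM 584485 was called higher in red (0.46, adjusted p = 0.0139).

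The steps that adjoin the hydroxylase's reaction were taken by words in the descriptions, chosen with these values known, so their counts are descriptions. Tyrosine breakdown begins where the hydroxylase's product, if it is tyrosine, enters. Of 6 models, all tested, 1 was higher and 5 lower in blue against dark, with a median of −1.17, and 1 was higher and 4 lower in red, with a median of −0.66. Over all tested models 39.9% were higher and 36.2% lower in blue (median 0.045), and 33.7% higher and 29.5% lower in red (median 0.041). Tyrosine aminotransferase 597379, the first step, was at 175 ± 10.1 FPKM in blue, 322 ± 13.8 FPKM in red and 539 ± 22.6 FPKM in dark libraries (−1.62 and −0.74). Next in order is 4-hydroxyphenylpyruvate dioxygenase, which makes homogentisate, and its 2 models moved apart. Model 671852, a long model that also carries an ABC transporter-like domain, was at 73.7 ± 1.02 FPKM in blue, 116 ± 1.39 FPKM in red and 276 ± 0.842 FPKM in dark libraries (−1.89 and −1.24). Model 593763 was at 59.9 ± 2.65 FPKM in blue, 55.0 ± 0.913 FPKM in red and 34.0 ± 0.761 FPKM in dark libraries (0.80 and 0.68). Homogentisate is also the precursor of tocopherols and plastoquinone in plants.

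Further down the route, homogentisate dioxygenase 583560, which opens the ring, was at 127 ± 12.8 FPKM in blue, 153 ± 9.49 FPKM in red and 229 ± 1.58 FPKM in dark libraries (−0.85 and −0.58), and it overlaps another model. Fumarylacetoacetase 421144, the last step, was at 117 ± 3.28 FPKM in blue, 192 ± 15.9 FPKM in red and 332 ± 0.192 FPKM in dark libraries (−1.50 and −0.79). A related domain protein, 573028, was lower in blue (−0.34) and not called in red (0.14, adjusted p = 0.162), and with TPM its blue call was lost (−0.094) and its red value was called higher (0.49). SEs in this route were between 0.0746 and 0.0935. Each of the 4 models lower in red kept that call with TPM, quantile normalization and median centring, and the order blue, red, dark was the order of the pair, with changes smaller than those of the hydroxylase.

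The enzymes of the pterin cofactor did not move one way. Of 7 matched models 6 were tested, with 3 higher and 3 lower in blue against dark and 1 higher and 3 lower in red, or 2 higher and 1 lower in red with TPM, beside 39.9% higher and 36.2% lower of all models in blue and 33.7% and 29.5% in red. Dihydropteridine reductase 601477, which restores the reduced pterin after hydroxylation and overlaps another model, was at 35.7 ± 0.118 FPKM in blue, 65.8 ± 4.05 FPKM in red and 85.8 ± 0.438 FPKM in dark libraries (−1.24 and −0.38, the red call lost with TPM at −0.034). Pterin carbinolamine dehydratase 576005, which acts just before it in the same cycle, was higher after both pulses, with 55.2 ± 9.11 FPKM in blue, 51.9 ± 3.98 FPKM in red and 31.8 ± 0.907 FPKM in dark libraries (0.77 and 0.69). The 2 recycling enzymes thus changed in opposite directions in blue libraries under each scaling tried.

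GTP cyclohydrolase I 583797, the entry to pterin synthesis, was at 131 ± 14.7 FPKM in blue, 80.2 ± 4.35 FPKM in red and 110.2 ± 0.420 FPKM in dark libraries. Its blue value (0.24) turned to −0.027 after median centring and lost its call without blue replicate 2 (0.12) and without dark replicate 1 or 2 (0.23 and 0.24). Without either red replicate, which only alters the spread, the call was lost too at 0.24. In red it was called lower (−0.45), which was lost with TPM (−0.11). Of the 2 models of the pyruvoyl tetrahydropterin synthase and QueD family, 588285 rose in blue (0.65; in red 0.10, not called, or 0.45 and called with TPM) and 600130 fell after both pulses (−0.75 and −0.59). Model 577889, a folate dehydrogenase with a pterin dehydratase domain, fell in blue (−1.20) and was at −0.036 in red (not called).

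For the dehydrogenase the adjoining steps are those of valine breakdown, if the GO term holds. Over all tested models 36.2% were lower in blue and 29.5% in red. All 7 models matched by words were lower in blue against dark, with a median of −1.31. In red 6 of 7 were lower, with a median of −0.62. None was higher in either, also with TPM, where 7 and 4 were called lower. The branched-chain aminotransferase 551337, the first step, was at 107 ± 4.48 FPKM in blue, 272 ± 13.0 FPKM in red and 526 ± 2.73 FPKM in dark libraries (−2.29 and −0.95). Of the ketoacid dehydrogenase that follows, the E1 component 623081 was lower after both (−1.31 and −0.62) and the E1 beta subunit 117466 in blue (−0.75), its red value of −0.18 not being called (adjusted p = 0.180), or called after median centring (−0.34). Kinases of this type switch their complex off by phosphorylation in animals. Model 612171 is described as a kinase of either that complex or pyruvate dehydrogenase, so its place in this route is not certain. It was lower in blue (−1.12) and in red (−0.36). Its red call was lost with TPM (−0.020) and without dark replicate 1 or 2 (adjusted p = 0.0511 and 0.0525).

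Among the 7 matched models, isobutyryl-CoA dehydrogenase and methylmalonate semialdehyde dehydrogenase stand closest to the dehydrogenase's own reaction. The words used did not cover enoyl-CoA hydratase, and no 3-hydroxyisobutyryl-CoA hydrolase was matched. Steps between isobutyryl-CoA dehydrogenase and the dehydrogenase's reaction are therefore missing here. Isobutyryl-CoA dehydrogenase 575529 was at 106 ± 6.55 FPKM in blue, 211 ± 6.84 FPKM in red and 333 ± 14.0 FPKM in dark libraries (−1.65 and −0.66). Methylmalonate semialdehyde dehydrogenase takes up the product of 3-hydroxyisobutyrate dehydrogenase. Its model 604591, which overlaps another model, was at 45.7 ± 4.04 FPKM in blue, 87.9 ± 3.15 FPKM in red and 183 ± 2.27 FPKM in dark libraries (−1.98 and −1.05). Model 565852 of the same class changed less (−0.49 and −0.39, the red call lost with TPM at −0.054) and overlaps another model too. SEs in this route were between 0.0806 and 0.108, and the order blue, red, dark again held for the means of all 7 models.

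**Figure D4:**
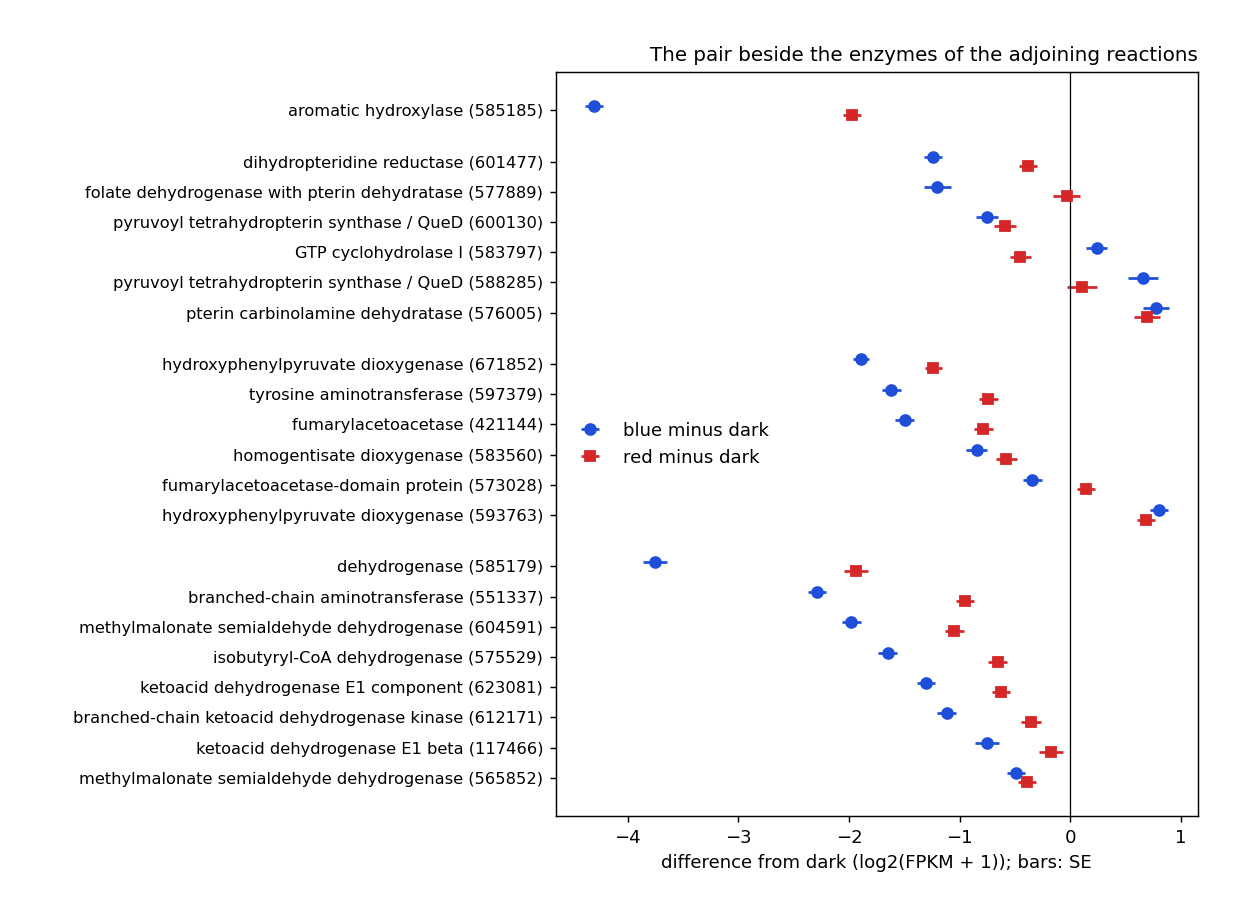
Log2(FPKM + 1) differences from dark in blue (circles) and red (squares), with bars for the SE, for the hydroxylase, the pterin cofactor enzymes, tyrosine breakdown, and the dehydrogenase with valine breakdown. Both members lie left of every enzyme of the adjoining steps in blue and in red, and the 7 models matched for valine breakdown all lie below 0. The kinase 612171 among these is described for either the branched-chain complex or pyruvate dehydrogenase.

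Wider lists by word pattern, also chosen with results known, gave less uniform counts. They can be read against all tested models, of which 39.9% were higher and 36.2% lower in blue (median 0.045) and 33.7% higher and 29.5% lower in red (median 0.041). The β-hydroxyacid and branched-chain list, which holds the dehydrogenase, had 7 higher and 24 lower of 36 tested in blue and 8 higher and 19 lower in red (medians −0.54 and −0.34). With TPM it had 11 higher and 20 lower in blue and 14 higher and 9 lower in red, so its balance in red turned. The balance of all models moved too. Of the red calls with TPM, 60.9% were higher in the list and 77.3% over all tested models. With FPKM these shares were 29.6% and 53.3%. Its largest changes after the dehydrogenase were the short-chain dehydrogenase 591729 (−3.01 in blue and −2.91 in red) and 573912, a phosphoserine aminotransferase with a phosphoglycerate dehydrogenase domain that belongs to serine synthesis (2.40 and 1.53). The pentose phosphate list, which holds the dehydrogenase by its domain name alone, had 10 higher and 9 lower of 24 in blue and 7 and 9 in red, or 13 and 5 in red with TPM and 7 and 12 in blue after median centring. Transketolase 582569 (1.98, and 0.21 in red, not called) and ribulose-phosphate epimerase 591692 (2.10 and 0.42, the red call lost without dark replicate 1 at 0.34) led it, both rising in blue where the dehydrogenase was low. Transketolase was called higher in red without red replicate 1 (0.36, adjusted p = 0.0234), with TPM (0.56) and after quantile normalization (0.73).

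Aromatic amino acid synthesis by the shikimate pathway, the supply of phenylalanine and tyrosine, had 16 higher and 4 lower of 28 in blue and 12 and 7 in red (medians 0.51 and 0.16), against 39.9% higher and 36.2% lower of all models in blue and 33.7% and 29.5% in red. In blue after median centring it had 12 and 7, and in red with TPM 18 and 2 and after median centring 9 and 9. The descriptions of 13 matched models name the fold of the tryptophan synthase beta subunit, which other enzymes share. Model 106091 has the KOG class of the pentafunctional AROM protein, while its GO term names 3-dehydroquinate synthase alone. It was at 357 ± 23.3 FPKM in blue, 24.6 ± 3.12 FPKM in red and 9.78 ± 0.310 FPKM in dark libraries (5.05 and 1.24), the reverse of the hydroxylase's order. Tryptophan synthase 602302 (1.65 and 1.78) and serine racemase 550825, matched by its fold (2.13 and 0.74), also rose after both.

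The last 2 lists can be read against the same shares of all tested models, 39.9% higher and 36.2% lower in blue and 33.7% and 29.5% in red. The list of aromatic breakdown words had 36 higher and 26 lower of 79 in blue and 28 and 21 in red. With TPM it had 48 and 13 in red, and after median centring 28 and 34 in blue and 21 and 26 in red. It holds 43 models with kinase or phosphatase in their descriptions and 18 kynurenine matches, so it says little of breakdown. An aminotransferase of the kynurenine type, 605110 (4.04 and 2.07), and a tryptophan/tyrosine permease, 672189 (3.05 and 2.41), led it after the hydroxylase and rose after both pulses. The pterin list had 15 higher and 10 lower of 31 in blue and 13 and 11 in red, or 19 and 8 in blue and 18 and 4 in red with TPM, and 9 and 13 in blue and 8 and 11 in red after median centring. Nitrate reductase 590448, matched by molybdopterin and no partner of the hydroxylase, rose most (5.23 and 2.32). Folate-biopterin transporters, of a family that carries folates and pterins across membranes in Leishmania, gave 8 matches. Of these, 34886 was at 7.51 ± 0.579 FPKM in blue, 45.6 ± 2.47 FPKM in red and 44.7 ± 1.18 FPKM in dark libraries. It fell in blue (−2.43) and was at 0.030 in red (not called, or called higher with TPM at 0.38). Blue was lower than red (−2.46, limma adjusted p = 1.15e-07), so 34886 did not follow the pair's middle level in red. The transporter matches 527291 (1.42 and 0.86) and 586179 (1.17 and 0.70) were higher after both pulses instead.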

How the data were processed

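Per the file headers, the authors deposited 1 table with FPKM and TPM values for each of 6 libraries. The authors' own log2 fold changes, p-values and q-values for blue and for red against dark stand in the same deposited table. The submitters' processing notes name FastQC, TopHat, Cufflinks, Cuffnorm and Cuffdiff, with no version and no role for any. Filters, the strand setting and any scaling between libraries were not given in the sources used here. The deposited log2 fold changes matched the ratio of the 2 mean FPKM values to within 0.01 on the log2 scale in 100% of the models compared.

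Values were present for 10635 of 10641 models, and 9087 with a mean of at least 1 FPKM were tested on log2(FPKM + 1) with limma 3.58.1 in R 4.3.3 (all 6 libraries, 1 coefficient per group, 3 residual degrees of freedom, variance trend, two-sided, Benjamini-Hochberg over all tested models, threshold 0.05). The procedure was tested on simulated data, with 50 models changed at each size in blue alone. Changes of 0.5 log2 were recovered in 70% of them and changes of 1, 2 and 4 in 100%, with 4 false calls among 189. Far fewer models changed there than were called here, so the simulation says nothing of the scaling between libraries. Tables were handled with pandas 2.3.3. Depth is not given. The FPKM steps of 969 low models gave fragments per FPKM relative to dark replicate 1 of 1.66 and 1.20 in blue, 1.69 and 1.33 in red, and 1.09 in dark replicate 2. Total fragments were not derived, and no count test was run.

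The members, the gene lists and the comparisons were chosen with earlier results of these data known. Differences of the members carry an SE from the fit and no p-value, because each reuses libraries of the choice. Named are the 2 members, 10 models on each side, the 10 models most alike, list members with the 3 largest called changes in blue, enzymes of adjoining reactions, and models of the same KOG class. A head-to-head pair is a − strand model followed by a + strand model. The 16 alternative settings covered unit, scaling, pseudocount, filter, variance model, replicate block and left-out libraries. Sequences are not shown.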

Additional observations from a re-analysis of the deposited data

How the results depend on the processing

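The pair's differences kept their direction in the 16 alternative settings. Several of these cannot alter a difference, such as the variance model, the filter, the replicate block or leaving out a library of the group not compared. The hydroxylase ranged between −2.14 and −1.53 in red against dark and between −2.56 and −2.19 in blue against red, and the dehydrogenase between −2.10 and −1.46 and between −2.03 and −1.65. With single replicates left out the ranges were −2.04 to −1.91 and −2.35 to −2.31 for the hydroxylase, and −1.98 to −1.89 and −1.98 to −1.65 for the dehydrogenase, in fits that assume a lone library to vary like the other groups. The difference in blue against dark moved to −4.07 with TPM, −4.57 after median centring, −4.09 after quantile normalization and −4.14 with a pseudocount of 5 for the hydroxylase (−4.37 to −4.24 with single replicates left out). For the dehydrogenase it moved to −3.51, −4.02 and −3.48 with the same 3 scalings (−3.91 to −3.59 with replicates left out). Counts of called models stayed between 6055 and 7039 in blue against dark, 4621 and 6441 in red against dark, and 3412 and 4858 in blue against red. Changes of sign in values called by either setting occurred for 565034 in red after quantile normalization (0.032), 583797 in blue after median centring (−0.027), and with TPM for 585191 (0.22 in blue and 0.32 in red) and 553919 in blue (0.25), whose FPKM values were not called. Of the other values of named models in both comparisons with dark, TPM ended 9 calls and added 10, median centring ended 5 and added 7, and quantile normalization ended 3 and added 8, none with a change of sign. The cause was not tested, beyond the shift of the median of all models with each scaling.

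Replicate numbers are shared by the groups but nothing in the labels pairs the libraries. The titles also hold a library code, and in it the first red library has another number than the first blue and dark libraries. Matching by replicate number therefore joins red with libraries of another code number. Deviations of libraries with the same replicate number correlated at 0.340 between blue and red, 0.0915 between blue and dark and −0.0818 between red and dark over 9087 models. With the number as a replicate block the models called were 7039, 5897 and 4858 in the same 3 comparisons, and of the named models only 605233 lost a call (red, −0.37, adjusted p = 0.0506). Groups of 2 libraries and unknown depth limit the precision of every value.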
